A study of Mus musculus with 4 samples.

Results

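Transcripts of 10 inhibitors of the RAS and MAP kinase cascade were followed in 4T1 cells given recombinant IL-17A: the dual-specificity phosphatase genes Dusp1, Dusp4, Dusp5, Dusp6 and Dusp7, the Sprouty genes Spry1, Spry2 and Spry4, and the SPRED genes Spred1 and Spred2. They were chosen by symbol as known feedback genes of the pathway, and all 10 were found among the 21840 genes of the deposited table. 4T1 is an established mouse mammary carcinoma cell line, here of wild-type genotype and grown in culture. Cells that received recombinant IL-17A (rIL17) gave 2 libraries and cells that received phosphate-buffered saline (PBS) gave 2; no dose, time or number of separate cultures is stated in the labels, so p-values cover only the variation among these 4 libraries, part or all of which may be technical. IL-17A is a cytokine that acts on epithelial cells through receptors that activate NF-kB, C/EBP and MAP kinase signalling. In bulk RNA, fewer cells of a type and less RNA per cell cannot be told apart.

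Growth factor receptors pass their signal through RAS, RAF and MEK to the kinase ERK, and the parallel p38 and JNK kinases respond to cytokines and stress. DUSP proteins of the MAP kinase phosphatase family remove the activating phosphates from these kinases. Sprouty and SPRED proteins act higher up, between the receptor and RAF. Many of these inhibitors are themselves transcribed in response to ERK activity, and their RNA is often read as a trace of recent signalling in epithelial tumours.

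The upstream windows of 5 of the genes are shown, those of the 3 members with the smallest p in the comparison of treatments and those of the 2 members with a match to a classical stimulus-response element. Each holds the 250 bases before the RefSeq start (build GRCm38.p6), on the gene's own strand. Capitals mark the ETS core GGAA in Dusp6 (chr10:99262981-99263230), Spred1 (chr2:117120821-117121070) and Spry1 (chr3:37639697-37639946), the cAMP response element TGACGTCA in Dusp1 (chr17:26508473-26508722) and 2 adjoining CArG boxes, the binding motif of serum response factor, in Dusp5 (chr19:53528895-53529144).
Dusp6: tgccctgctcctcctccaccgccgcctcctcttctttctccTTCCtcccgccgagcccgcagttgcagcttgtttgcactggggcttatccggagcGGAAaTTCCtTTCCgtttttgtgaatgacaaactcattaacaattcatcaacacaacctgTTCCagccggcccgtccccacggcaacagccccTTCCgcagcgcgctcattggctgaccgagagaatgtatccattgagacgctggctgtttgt
Spred1: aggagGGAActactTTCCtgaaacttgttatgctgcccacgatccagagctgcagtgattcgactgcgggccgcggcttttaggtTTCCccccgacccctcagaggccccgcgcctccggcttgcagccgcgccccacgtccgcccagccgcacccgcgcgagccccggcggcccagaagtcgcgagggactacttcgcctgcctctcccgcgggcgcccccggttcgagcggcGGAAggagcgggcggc
Spry1: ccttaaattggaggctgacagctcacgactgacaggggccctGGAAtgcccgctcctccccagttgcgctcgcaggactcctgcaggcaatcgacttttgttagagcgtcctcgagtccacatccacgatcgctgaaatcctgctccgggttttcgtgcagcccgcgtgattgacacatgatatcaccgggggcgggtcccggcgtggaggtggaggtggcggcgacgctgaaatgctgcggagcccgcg
Dusp1: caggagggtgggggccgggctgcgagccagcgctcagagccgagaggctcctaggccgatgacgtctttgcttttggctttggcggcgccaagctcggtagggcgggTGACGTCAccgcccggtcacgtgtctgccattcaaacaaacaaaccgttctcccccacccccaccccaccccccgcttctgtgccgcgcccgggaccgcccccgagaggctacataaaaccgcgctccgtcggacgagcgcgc
Dusp5: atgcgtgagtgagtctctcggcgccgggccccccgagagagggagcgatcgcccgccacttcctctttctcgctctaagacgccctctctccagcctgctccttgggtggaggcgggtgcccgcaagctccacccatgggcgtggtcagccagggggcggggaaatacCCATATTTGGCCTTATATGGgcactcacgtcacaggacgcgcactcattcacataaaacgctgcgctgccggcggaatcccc

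Windows were found for 8 of the 10 members, and both strands were searched. The GGAA core occurred 6 times in the Dusp6 window, 4 times in that of Spred1 and 1 time in that of Spry1. It occurred 7 times in that of Spred2, 3 times each in those of Dusp5 and Spry2, and in neither Dusp1 nor Dusp7. The 32851 windows of all genes had a median of 3, and 93.4% held at least 1. The cAMP response element was found in Dusp1 only of the 8, and in 1.55% of all windows. CArG boxes were found in Dusp5 only of the 8, and in 1.47% of all windows. None of the 8 windows held the AP-1 motif TGANTCA, the longer ETS motif CCGGAAGT, the C/EBP motif TTGCNNAA or the NF-kB consensus, which occurred in 6.75%, 2.88%, 9.56% and 7.25% of all windows. These matches describe letters in the windows and are no evidence of binding.

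Divided by the smallest step of each library, the deposited values summed to 17511450 to 17970104 per library, taken here as an estimate of the reads assigned to genes. All 5 genes used as a check of the IL-17 response rose in rIL17 in limma's test, where 0.623% of all genes tested were called higher. The 5 were chosen with earlier results of these data known. Lcn2, the gene of lipocalin-2, which binds bacterial siderophores, had 28833 and 28096 normalized counts in rIL17, against 8448 and 8498 in PBS (limma adjusted p = 0.000332). That count of 5 was 1 without either rIL17 library, and 0 with less strict filters on low values. The epithelial keratin genes Krt8 and Krt18 were abundant (15966 to 32665 normalized counts), the epithelial genes Epcam and Cdh1 were present at 76.6 to 208, and the summed level of the 5 epithelial markers was 43227 and 45152 in rIL17, against 50872 and 54775 in PBS. Of the 6 leukocyte markers 2 were in the table, with sums of 4.02 and 5.01 in rIL17 and 2.94 and 3.98 in PBS, and of these Ptprc, found in all leukocytes, had 3.02 and 2.01 in rIL17 and 0 in each PBS library. The 4 fibroblast markers in the table, nearly all of whose signal was Pdgfra, summed to 2946 and 2941 in rIL17, against 2408 and 2520 in PBS, and the 3 endothelial markers summed to 6.87 to 8.02 in every library. The part of these markers in the values below was not tested. PBS replicate 2 stood apart: the first principal component, with 72.3% of the variance, placed the rIL17 replicates at -24.0 and -17.7, PBS replicate 1 at 5.21 and PBS replicate 2 at 36.5. It also differed along the GC content of transcripts, lying 0.26 below PBS replicate 1 on the log2 scale at the median of 3198 genes under 45% GC.

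In the comparison of rIL17 with PBS, 0 of the 10 feedback genes passed limma's test over 12515 genes (adjusted p below 0.05), where 0.807% of all genes passed, 78 of them higher (0.623%) and 23 lower (0.184%) in rIL17. Spred1 and Dusp6 were higher and Spry1 was lower in each rIL17 library than in either PBS library, with adjusted p-values of 0.0641 to 0.0722 by limma, just outside the threshold. An unadjusted p below 0.05 was found for 4 of the 10, those 3 and Spred2, against 16.6% of all genes tested, and limma-voom called 2, Spred1 higher and Spry1 lower, against 1.53% of all genes tested. The groups did not overlap for 7 members, against 51.1% of all genes tested: 4 higher (Dusp4, Dusp6, Spred1, Spred2) and 3 lower (Spry1, Spry2, Spry4), where 25.8% of all genes tested were higher and 25.4% lower without overlap. The median log2 fold change was 0.02 over the 10 and -0.003 over all genes tested. With 2 libraries per group, an exact two-sided permutation test of a single gene cannot give a p below 0.333.

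**Figure D1:**
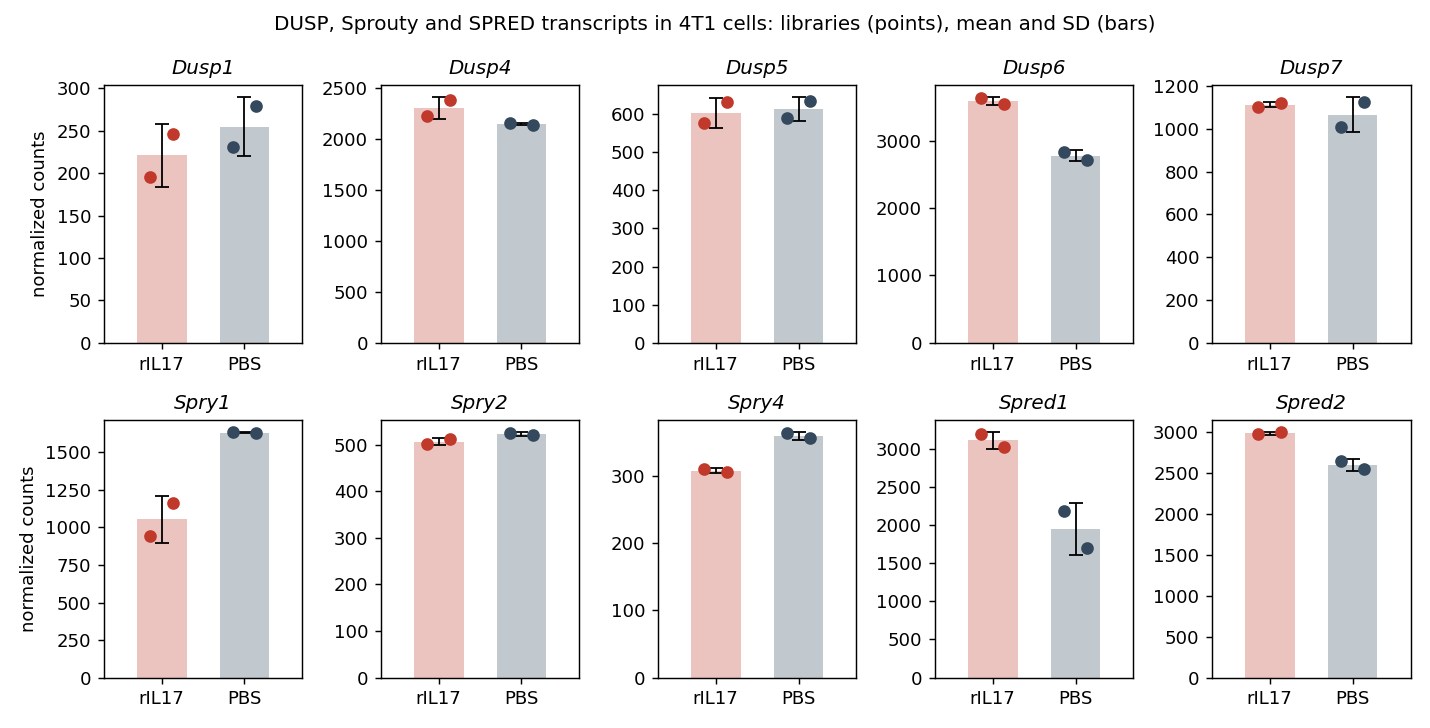
Normalized counts (linear axes from 0) of the 10 genes, with rIL17 in red left of PBS in dark blue; points are libraries, bars the mean and whiskers the SD (n = 2 per group). Dusp6, Spred1 and Spred2 lie higher in rIL17, Spry1 and Spry4 lower, and the libraries of Dusp1, Dusp5 and Dusp7 overlap.

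Among the phosphatases, Dusp6 encodes the cytoplasmic, ERK-selective MKP-3 (ENSMUSG00000019960, mm10 chromosome 10, 99263231 to 99267489, plus strand). It had 3626 and 3545 normalized counts in the rIL17 libraries, against 2831 and 2717 in the PBS libraries. The lower of the rIL17 libraries was above the higher of the PBS libraries, and replicates lay within 0.06 of each other on the log2 scale. The mean was 3586 ± 57.1 in rIL17 and 2774 ± 80.5 in PBS (SD, n = 2 each), a ratio of 1.29. The log2 fold change was 0.37 (SE 0.06, 95% confidence interval 0.22 to 0.52, limma adjusted p = 0.0641), and 15.5% of the genes tested had a larger change in either direction. With correction for GC content it was 0.38 (adjusted p = 0.0196), and without PBS replicate 2 it was 0.34. With a filter on a group mean of at least 1 normalized count, the limma adjusted p was 0.369.

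Dusp7, which encodes a related cytoplasmic ERK phosphatase (chromosome 9, 106368632 to 106375724, plus strand), overlapped between the groups. It had 1104 and 1120.3 normalized counts in rIL17, against 1009 and 1124 in PBS. Both rIL17 values lay between those of PBS. Its log2 fold change was 0.06 (95% confidence interval -0.14 to 0.26). Without PBS replicate 1 it was -0.02.

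Of the nuclear phosphatase genes Dusp1, Dusp4 and Dusp5, 0 passed the test over all genes. Dusp1 (chromosome 17, 26505590 to 26562128, minus strand) encodes MKP-1, an immediate early gene product that acts on p38 and JNK as well as ERK. This annotated span reaches beyond the RefSeq start, so the upstream window shown lies within it. Dusp1 exons share 11 bases with Ergic1 on the opposite strand, which had 2870 and 2873 normalized counts in rIL17 and 2970 and 2973 in PBS. Dusp1 had 195 and 247 normalized counts in rIL17, against 231 and 279 in PBS. The groups overlapped, replicates differed by 0.34 in rIL17 and 0.28 in PBS on the log2 scale, and the log2 fold change was -0.21 (95% confidence interval -0.61 to 0.19). It was between -0.38 and -0.04 with 1 library left out, and -0.04 without rIL17 replicate 1. Dusp4 (chromosome 8, 34807297 to 34819894, plus strand), encoding MKP-2, had 2227 and 2377 in rIL17, against 2155 and 2138 in PBS. Both rIL17 libraries were above both PBS libraries, by a log2 fold change of 0.10 (95% confidence interval -0.06 to 0.26). Dusp5 (chromosome 19, 53529109 to 53542431, plus strand), whose product is selective for ERK in the nucleus, had 575 and 631 in rIL17, against 589.7 and 634 in PBS. The groups overlapped and the log2 fold change was -0.02 (95% confidence interval -0.25 to 0.21). Its exons share 547 bases with an antisense gene on the opposite strand that is not analysed here, and whether the counting used strand is not given in the sources used here.

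Of the 3 Sprouty genes, whose products restrain RAS signalling downstream of growth factor receptors, 0 passed the test over all genes. Spry1 (ENSMUSG00000037211, chromosome 3, 37639947 to 37644598, plus strand) had 945 and 1165 normalized counts in rIL17, against 1635 and 1628 in PBS. Both rIL17 libraries were below both PBS libraries; the rIL17 libraries differed from each other by 0.30 on the log2 scale and the PBS libraries by 0.006. The mean was 1055 ± 156 in rIL17 and 1631 ± 4.77 in PBS (SD, n = 2 each), a ratio of 0.647. The log2 fold change was -0.64 (SE 0.11, 95% confidence interval -0.90 to -0.37, limma adjusted p = 0.0702), and 6.08% of the genes tested had a larger change in either direction. It was -0.59 with the GC correction (adjusted p = 0.0213), -0.64 without PBS replicate 2, -0.48 with rIL17 replicate 1 left out and -0.79 with rIL17 replicate 2 left out. With a filter on a group mean of at least 1 normalized count, the limma adjusted p was 0.370. Spry1 exons share 710 bases with Gm42922 on the opposite strand, which had 4.02 and 0 normalized counts in rIL17 and 0.981 and 1.99 in PBS.

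Spry4 (chromosome 18, 38586247 to 38601415, minus strand) had 309.6 and 305 normalized counts in rIL17, against 363 and 355 in PBS. The groups did not overlap, and replicates differed by 0.02 in rIL17 and 0.03 in PBS on the log2 scale. The log2 fold change was -0.22 (95% confidence interval -0.47 to 0.02, limma adjusted p = 0.332). Spry2 (chromosome 14, 105891947 to 105896819, minus strand) had 501 and 511 in rIL17, against 526 and 520.1 in PBS. The groups did not overlap by a small margin, and the log2 fold change was -0.05 (95% confidence interval -0.26 to 0.16). Summed over the 3 genes, Sprouty transcripts had 1755 and 1982 normalized counts in rIL17, against 2524 and 2503 in PBS, most of the difference being that of Spry1.

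The SPRED genes encode membrane-associated relatives of Sprouty that bind neurofibromin, the RAS-inactivating protein. Spred1 (ENSMUSG00000027351, chromosome 2, 117121374 to 117182279, plus strand) had 3186 and 3028 normalized counts in rIL17, against 2185 and 1702 in PBS. Both rIL17 libraries were above both PBS libraries, and PBS replicate 2 was the lowest of the 4, 0.36 below PBS replicate 1 on the log2 scale. The mean was 3107 ± 112 in rIL17 and 1944 ± 341 in PBS (SD, n = 2 each), a ratio of 1.60. The log2 fold change was 0.69 (SE 0.12, 95% confidence interval 0.40 to 0.97, limma adjusted p = 0.0722), and 5.28% of the genes tested had a larger change in either direction. The Spred1 transcript had the lowest GC content of the 10, 41.2%, and the median log2 fold change of the 779 genes tested at 40 to 42% GC was 0.30. With the GC correction the Spred1 value was 0.34 (adjusted p = 0.0233), and without PBS replicate 2 it was 0.51. With a filter on a group mean of at least 1 normalized count, the limma adjusted p was 0.373.

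Spred2 (chromosome 11, 19924375 to 20024026, plus strand) had 2977 and 2999 normalized counts in rIL17, against 2651 and 2552 in PBS. The groups did not overlap, and the log2 fold change was 0.20 (SE 0.06, 95% confidence interval 0.05 to 0.35, limma adjusted p = 0.199). With the GC correction it was 0.24 (adjusted p = 0.0868). Summed over both genes, SPRED transcripts had 6162 and 6027 normalized counts in rIL17, against 4836 and 4254 in PBS. Most of the difference was that of Spred1, whose log2 fold change was 0.69, and 0.34 with the GC correction.

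**Figure D2:**
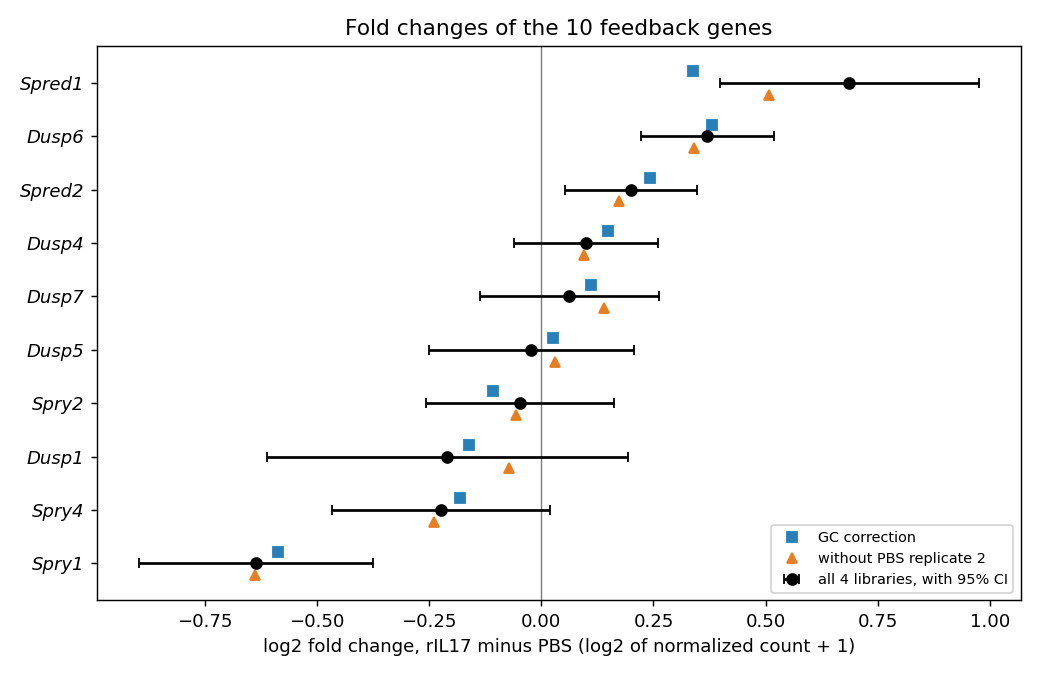
Log2 fold changes (rIL17 minus PBS) of the 10 genes from all 4 libraries with 95% confidence intervals (black), after correction for transcript GC content (blue squares) and without PBS replicate 2 (orange triangles). The value of Spred1 is 0.69, 0.34 and 0.51 in the 3 settings, that of Dusp6 is 0.37, 0.38 and 0.34, and that of Spry1 is -0.64, -0.59 and -0.64.

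Other members of the 10 have transcripts of 46.2% to 57.6% GC, a range over which the median change of all genes was near 0. From 48% GC upward, bins of 2 percentage points had median log2 fold changes of -0.09 to -0.03. Dusp6, at 49.0% GC, and Spry1, at 56.7%, lay well above and below the median of their bins, which were -0.03 and -0.06.

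**Figure D3:**
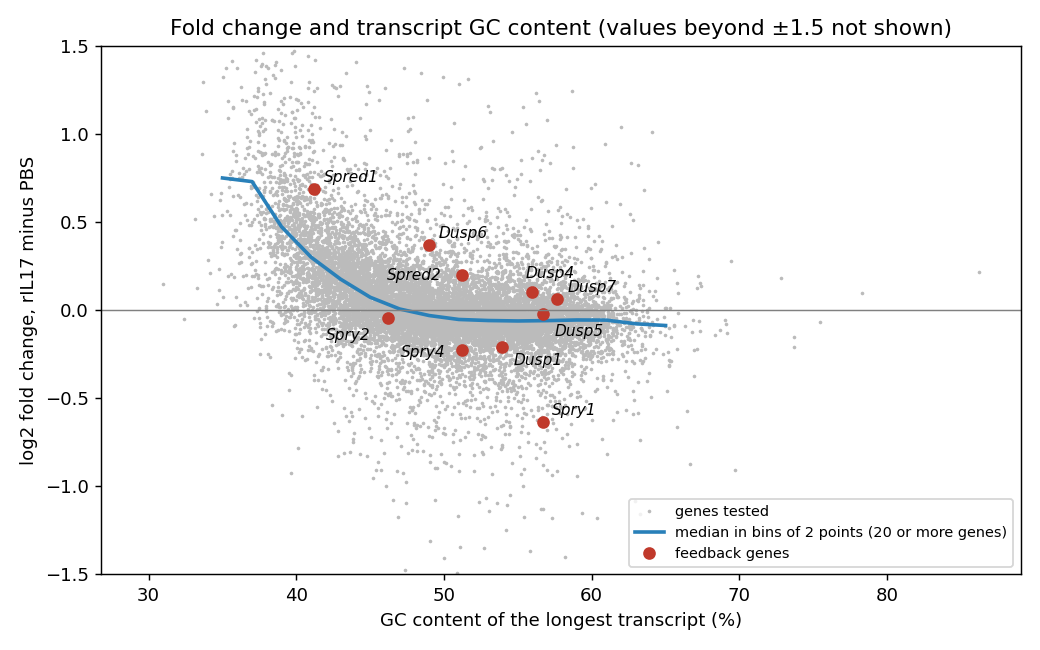
Log2 fold change (rIL17 minus PBS) of each gene tested (grey) against the GC content of its longest transcript in percent, with the median in bins of 2 percentage points (blue line) and the feedback genes (red). The median is above 0 at low GC content, 0.30 at 40 to 42%, where Spred1 is found.

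Per kilobase of exon (RPKM, computed from the normalized counts), Dusp6 was the most abundant of the 10 in both groups, with 64.0 ± 0.416 in rIL17 and 50.5 ± 1.02 in PBS (SD, n = 2 each). Dusp4 followed with 47.0 ± 2.61 in rIL17 and 44.7 ± 0.148 in PBS, and Spred2 with 36.2 ± 0.530 in rIL17 and 32.1 ± 0.586 in PBS. Dusp1 and Spry4 were the least abundant, with 3.73 ± 0.652 and 3.61 ± 0.00535 in rIL17, against 4.40 ± 0.634 and 4.31 ± 0.0302 in PBS, and did not differ from each other beyond the spread of Dusp1. The order of the genes in between was not the same in the groups. Spred1 stood above Spry1 in rIL17, with 25.6 ± 0.679 against 20.3 ± 3.19, while in PBS Spry1 had 32.0 ± 0.188 and Spred1 16.3 ± 2.73. Spry1 and Dusp7 overlapped in rIL17, Spred2 and Spry1 as well as Dusp7 and Spred1 in PBS, and Spry2 and Dusp5 in both groups. Summed per kilobase, the 5 DUSP genes came to 144 and 149.9 RPKM in rIL17, against 130.4 and 133 in PBS. Most of the difference was that of Dusp6, while Dusp1, Dusp5 and Dusp7 overlapped between the groups.

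**Figure D4:**
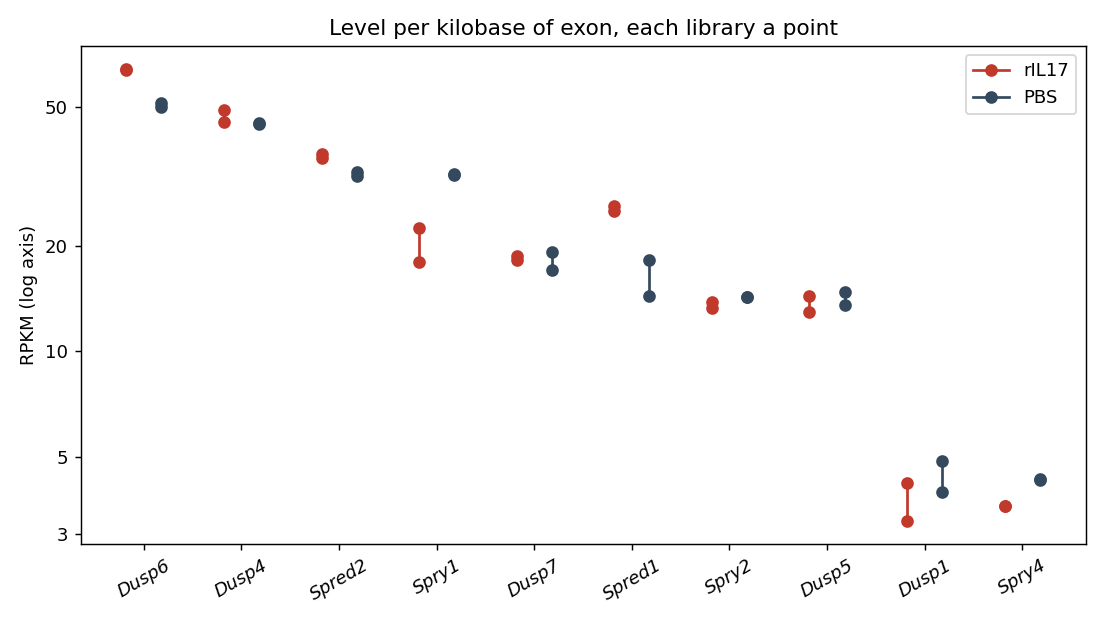
Level of each gene in RPKM (log axis) in every library, ordered by the PBS mean, with rIL17 in red left of PBS in dark blue. Dusp6 is highest and Dusp1 and Spry4 lowest in both groups, and Spry1 and Spred1 exchange places.

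Relatives of the 10 genes were examined from lists of the same pathway; the counts below stand against 16.6% of all genes tested with an unadjusted p below 0.05 and 1.53% called by limma-voom. Of 6 other phosphatase and SPRED genes tested, 0 passed limma's test over all genes, 2 had an unadjusted p below 0.05 and 0 were called by limma-voom. The ERK phosphatase gene Dusp9, the closest relative of Dusp6 and Dusp7, had 829 and 795 normalized counts in rIL17, against 976 and 1181 in PBS (log2 fold change -0.40, limma adjusted p = 0.164). Dusp8 and Dusp16, whose products act on JNK and p38, had -0.31 (adjusted p = 0.233) and -0.18 (adjusted p = 0.32) in limma, and Dusp2, a nuclear phosphatase gene, 0.28 (adjusted p = 0.518).

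Of 12 other inhibitors of receptor and RAS signalling, 0 passed in limma, 5 had an unadjusted p below 0.05 (16.6% of all genes tested) and 0 were called by limma-voom (1.53% of all genes tested). Errfi1, encoding the EGF receptor inhibitor MIG6, had 3959 and 4132 normalized counts in rIL17, against 3509 and 3220 in PBS (log2 fold change 0.27, limma adjusted p = 0.157). Rgs2, a regulator of G-protein signalling, had 114 and 121 in rIL17, against 76.5 and 83.5 in PBS (log2 fold change 0.55, limma adjusted p = 0.2). Spsb1 had a log2 fold change of 0.27 and Dok1, encoding an adaptor that recruits a RAS GTPase-activating protein, -0.24, with limma adjusted p = 0.234 and 0.235. Il17rd, which encodes both a relative of the IL-17 receptor and the ERK inhibitor Sef, had 75.4 and 74.2 in rIL17, against 109.9 and 78.6 in PBS (log2 fold change -0.31, limma adjusted p = 0.52); it was named after its values were seen.

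The kinases themselves gave 0 calls in limma. In the RAS and RAF to ERK cascade, 13 of 19 genes tested were higher, where 49.3% of all genes tested had a positive change. The list median was 0.09 (log2 fold change), against -0.003 over all genes tested. An unadjusted p below 0.05 was found for 4, and limma-voom called 0. The list holds both RAS activator genes such as Sos1 and Nf1, the gene of the RAS-inactivating neurofibromin, so the count gives no direction for the pathway. The RAS activator gene Sos1 had 0.37 (adjusted p = 0.22) by limma; its transcript holds 41.0% GC. The RAF scaffold gene Ksr1 had 0.21 and the RAS GTPase-activating gene Rasa2 0.31. The Rasa2 transcript holds 39.8% GC, and the median log2 fold change of all genes tested at 38 to 40% GC was 0.47. At 40 to 42% GC, where Sos1 lies, that median was 0.30. In the p38 and JNK cascade, 8 of 13 tested were higher, 1 had an unadjusted p below 0.05 and limma-voom called 0. The JNK gene Mapk8 had 0.32 (limma adjusted p = 0.257), Map3k5 0.13, Map2k3 -0.14 and Map2k7 -0.12. The Mapk8 transcript holds 40.1% GC, also in the range of 40 to 42%.

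Upstream, Tgfa rose among the 4 EGF receptor ligand genes tested, with 1971 and 1993 normalized counts in rIL17, against 1418 and 1456 in PBS (log2 fold change 0.46, limma adjusted p = 0.0445). It was the 1 ligand gene called by limma, against 0.807% of all genes tested. An unadjusted p below 0.05 was found for 2 of the 4, against 16.6% of all genes tested. Areg had 0.26 (adjusted p = 0.189), Btc 0.65 (adjusted p = 0.346) and Hbegf -0.16 (adjusted p = 0.33) by limma. Of 11 growth factor receptor genes 0 passed in limma, 3 had an unadjusted p below 0.05 and 0 were called by limma-voom; Pdgfra had a log2 fold change of 0.26, Fgfr1 -0.24, Fgfr3 -0.34 and Pdgfrb -0.47. The list downstream of the kinases held 20 transcription factor and early genes of the ERK response. Ier3, an early-response gene, rose by a log2 fold change of 0.73 (limma adjusted p = 0.014). It was the 1 gene of the 20 called by limma, against 0.807% of all genes tested. Whether the RNAs of this list, Ier3 among them, follow ERK activity in these cells was not tested. Fosl1, an AP-1 subunit gene, had -0.28 (adjusted p = 0.107), Egr1, an immediate early transcription factor gene, -0.54 (adjusted p = 0.117) and Etv1, an ETS factor gene, 0.72 (adjusted p = 0.137) by limma. The Etv1 transcript holds 39.8% GC, and the median log2 fold change of all genes tested at 38 to 40% GC was 0.47. Of these 20 genes 11 were higher and 9 lower, and 8 had an unadjusted p below 0.05, against 16.6% of all genes tested. The calls of Tgfa and Ier3 ended without either rIL17 library, where the limma adjusted p was 0.554 and 0.38 for Tgfa and 0.315 and 0.212 for Ier3, without replicate 1 and without replicate 2. They also ended with a filter on a group mean of at least 1 normalized count (adjusted p = 0.353 for Tgfa and 0.31 for Ier3 by limma).

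**Figure D5:**
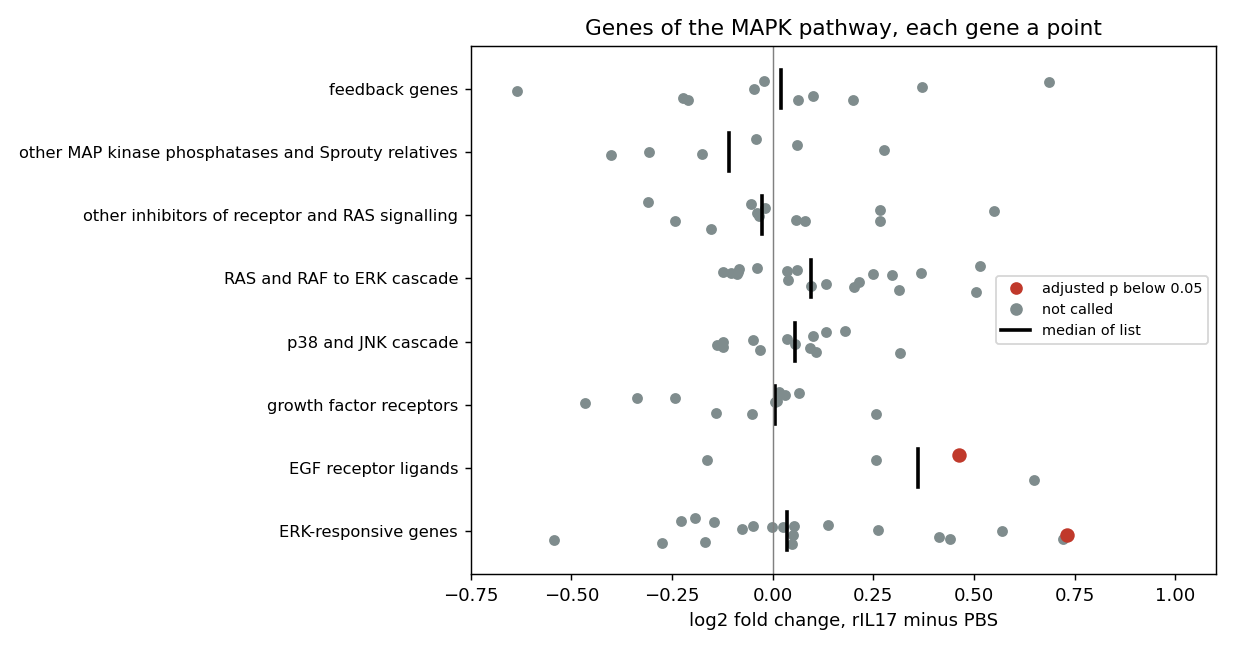
Log2 fold change (rIL17 minus PBS) of each gene tested in 8 lists of the MAPK pathway, with the list median (black bar) and genes at an adjusted p below 0.05 in red (limma over all genes). Tgfa and Ier3 are the red points, and the feedback genes spread from -0.64 to 0.69 around a median of 0.02.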

How the data were processed

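RNA of 4 libraries was measured by RNA-seq from total RNA with a directional kit, per the labels' protocols. CASAVA, HISAT2 2.0.5, featureCounts 1.5.0-p3 and mm10 are named in the submitters' processing notes; the annotation, the strand setting and the scaling tool: not given in the sources used here. The deposited values are a normalized signal: in each library 100.0% lay within 0.001 of a whole multiple of 1 step (0.9811 to 1.0053), as read counts divided by a size factor do, and are called normalized counts. Sampling noise did not account for the replicate spread (chi-square per gene 3.77 between rIL17 and 14.2 between PBS libraries).

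Genes that reached 10 normalized counts in both libraries of a group, with a mean CPM no lower than 1, were tested with limma 3.58.1 (R 4.3.3, trend) on log2(normalized count + 1), treatment the only term, with Benjamini-Hochberg adjustment over all genes at 0.05. This filter was preferred because genes with few reads lowered limma's prior degrees of freedom (4.37 with it, 1.63 with a group mean of at least 1); without it 0 genes pass. The fold change on this scale understates the change of low genes. The fit was also run on simulated data that held no GC trend and no library set apart, so that run does not bear on those features. Symbols matched 21819 of 21840 IDs, positions and lengths are those of GENCODE M21 (mm10), and promoter windows are from RefSeq. The members, lists and filter were chosen with earlier results of these data known. All members are named, and of each other list up to 4 tested genes with the smallest p, except a gene that is not reported here. Alternatives were other filters, pseudocount, scaling, limma-voom, the replicate block, a GC correction (loess on the longest transcript's GC, alone and with the block) and each library left out.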

Additional observations from a re-analysis of the deposited data

How the results depend on the processing

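The number of all genes called (101) was 98 with a pseudocount of 0.1, 0 with a filter on a group mean of at least 1 or with no filter, 179 with upper-quartile scaling, 191 with limma-voom and 324 with the GC correction (159 higher and 165 lower, against 78 and 23). The number of feedback genes called (0) stayed 0 with both other filters and the pseudocount of 0.1, and was 2 with upper-quartile scaling or limma-voom (Spred1, Spry1) and 3 with the GC correction (those and Dusp6). With the replicate number as a block, 1032 genes and 3 feedback genes were called; with the GC correction and the block together, 1171 and 4. The labels do not say that a number marks a shared culture, and deviations of same-numbered libraries correlated at 0.16. With each library left out, 1 to 2734 genes and 0 to 4 feedback genes were called. Both ranges had their high end without PBS replicate 1. The low end for all genes came without rIL17 replicate 1, and that for the feedback genes without either rIL17 library. In these fits a lone library is assumed to vary like those of the other group. The feedback counts are therefore not read apart from the counts of all genes. The cause of the other shifts was not tested. Signs held in all 12 alternatives for 8 members. The log2 fold change of Dusp5, -0.022, was 0.026 with the GC correction, with or without the block, and between -0.089 and 0.045 with libraries left out; that of Dusp7, 0.063, was then between -0.015 and 0.14. The planned count tests were not run because the deposited values are normalized. Counts recovered by dividing by the step were taken as an estimate only. The 2 libraries per group and the depth both enter the width of the members' intervals.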

Other observations

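Ratios between members within a library were chosen after their values were seen and are given with no test. The ratios below separated the groups. Spred1, Dusp6 and Spred2 were higher and Spry1 lower without overlap, so their ratios to Spry1 had to do so. Single genes did not overlap in 51.1% of all genes tested, and the share of other gene pairs that separate was not computed. Per kilobase of exon, Spred1 stood to Spry1 at 1.44 and 1.11 in rIL17, against 0.573 and 0.448 in PBS. The transcripts hold 41.2% GC (Spred1) and 56.7% GC (Spry1), and the difference of their log2 fold changes, 1.32, was 0.93 with the GC correction. Dusp6 stood to Spry1 at 3.56 and 2.82 in rIL17, against 1.61 and 1.55 in PBS, and Spred2 to Spry1 at 1.98 and 1.62 in rIL17, against 1.02 and 0.986 in PBS. Within the phosphatases, Dusp6 stood to Dusp4 at 1.42 and 1.30 in rIL17, against 1.15 and 1.11 in PBS. Within the SPRED pair, Spred1 stood to Spred2 at 0.729 and 0.687 in rIL17, against 0.561 and 0.454 in PBS. The Spred2 transcript holds 51.2% GC, and the difference of the log2 fold changes of Spred1 and Spred2, 0.49, was 0.10 with the GC correction.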
